A study of Mus musculus with 2 samples.

Results

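Skin exposed to ultraviolet radiation (UVR) and then treated with 9-cis HPR was compared with UVR-exposed skin treated with retinol. The title of the series calls both agents retinoids. Both skins came from female SKH-1 mice, a hairless strain, aged 10 to 12 weeks, and were mounted as 2 sections on 1 capture area of a Visium slide, which reads transcripts at barcoded spots laid over the tissue. The 9-cis HPR section was taken as the lower piece of tissue on the image and the retinol section as the upper one, as the labels place them. No spot lay between image rows 3342 and 5955, so the division fell in empty ground. The numbering of the spot grid runs against the image, and reading upper from the grid would exchange the sections and turn every ratio below round. Spots with at least 200 unique molecular identifiers (UMIs, one per captured probe molecule) were kept, which left 644 spots of 9-cis HPR skin and 544 spots of retinol skin, 1188 of the 2174 kept spots of the series. The agents were applied at different strengths, 0.03% 9-cis HPR and 0.1% retinol, so agent and strength cannot be told apart. Each treatment had 1 section and the labels do not say how many mice it stands for. No test was possible, and every interval below covers counting error only. Skin given UVR alone and untreated control skin, which lay on another capture area, are quoted as levels beside the treated skins, with no ratio or test; the areas may differ in ways that were not tested.

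Retinoids act through nuclear receptors, the retinoic acid receptors and retinoid X receptors, after retinol has been oxidised to retinoic acid by dehydrogenases inside the cell. In epidermis they are known to alter the passage of keratinocytes from the dividing basal layer to the cornified layer, partly through growth factors of the epidermal growth factor (EGF) family, and in dermis to alter collagen turnover. The cornified layer is built from loricrin, filaggrin-type proteins and small proline-rich proteins, which transglutaminases and lipid enzymes join into a barrier. Beneath the dermis of mouse skin lies a thin sheet of skeletal muscle, which the sections included.

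The map of kept spots shows the same layers in both sections: a band of epidermal spots along 1 edge, a muscle band along the other, and remaining spots between. Epidermal spots were those with at least 1000 UMIs of which at least 3% came from *Krt5* and *Krt14*, the basal keratin genes, and *Lor*, the loricrin gene. They numbered 181 in 9-cis HPR skin, or 28.1% of kept spots (exact binomial 95% interval 24.7% to 31.8%), and 176 in retinol skin, or 32.4% (28.4% to 36.5%). These spots held 948047 UMIs (75.8%) in 9-cis HPR skin and 1085484 (76.7%) in retinol skin. Their median depth was 4378 UMIs in 9-cis HPR skin and 5517.5 in retinol skin. Close to the limits, 47 spots of 9-cis HPR skin and 43 of retinol skin had a share of 3% to 4%, while 19 and 22, in the same order of skins, had 2% to 3% and were left out. Among the rest, 194 spots of 9-cis HPR skin and 134 of retinol skin were muscle-rich, with at least 3% of UMIs from 5 muscle genes (*Acta1*, *Ckm*, *Myh4*, *Tnnt3* and *Pvalb*). The remaining 269 spots of 9-cis HPR skin and 234 of retinol skin are called other spots and lay mostly between those bands.

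**Figure D1:**
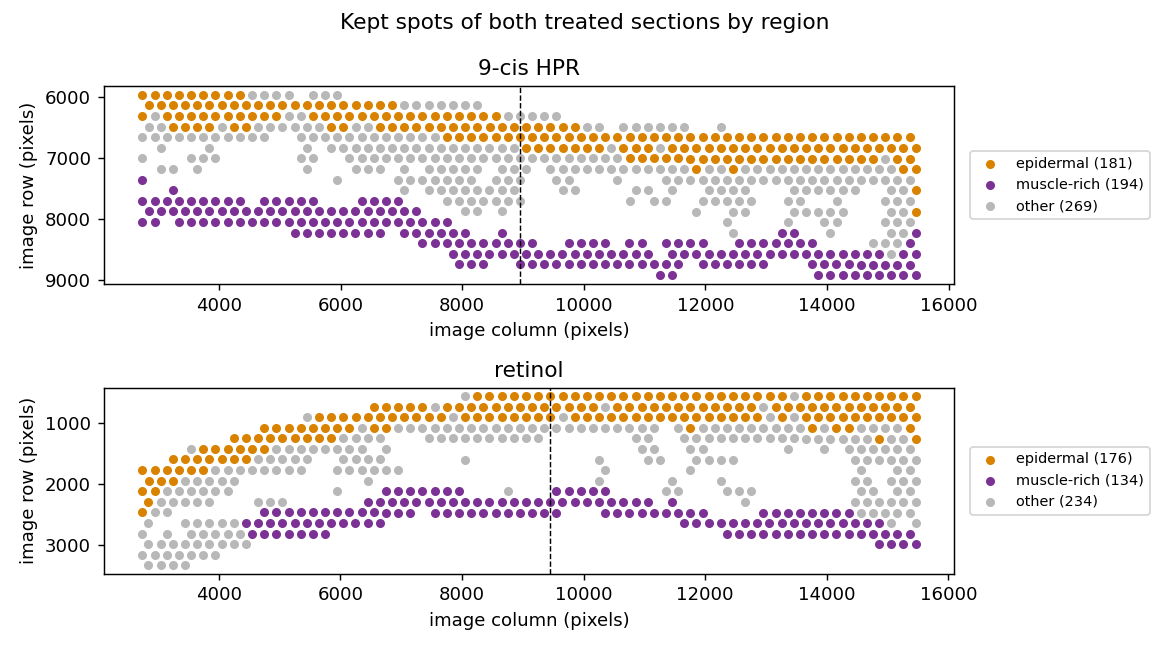
Kept spots of the 9-cis HPR section (above) and the retinol section (below), placed by image column and row in pixels and coloured by region, with the number of spots in each region. The dashed line divides a section into its left and right sides; both sections show an epidermal band above and a muscle band below.

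The markers fitted skin in both sections. Summed markers of basal keratinocytes stood at 28300 UMIs per 1000000 UMIs of the section or region (CPM) in 9-cis HPR skin and 31630 CPM in retinol skin, and those of suprabasal and cornified cells at 18830 and 11470 CPM, in that order. Hair follicle markers were all at 0 in 9-cis HPR skin and had 2 UMIs in retinol skin. Fibroblast markers were higher in 9-cis HPR skin (1621 CPM against 847 CPM), almost all from 3 collagen genes, as were plasma cell markers (417 against 182 CPM) and melanocyte markers (116 against 55.8 CPM). Skeletal muscle markers were lower (11920 against 16500 CPM). The plasma cell sum was mostly 1 gene: in the other spots *Igha* gave 391 of 422 UMIs in 9-cis HPR skin and 141 of 156 in retinol skin. In epidermal spots plasma cell markers stood at 88.6 CPM in 9-cis HPR skin and 88.4 CPM in retinol skin. The part that these shifts in makeup play in the results below was not tested, and because a spot holds several cells, fewer cells of a type and less RNA per cell cannot be told apart.

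Most genes lay close together in both skins. Over the whole section 19 of 2231 genes with at least 100 UMIs were at least 2-fold higher in 9-cis HPR skin (0.852%), and 41 lay that far below retinol skin (1.84%). In epidermal spots 13 of 1771 genes were 2-fold or more above retinol skin (0.734%) and 33 as far below (1.86%), and in the other spots 12 of 663 were higher (1.81%) and 15 lower (2.26%). No gene of the whole section reached 4-fold higher, and 3 reached 4-fold lower. The median log2 ratio was -0.12 in epidermal spots, so a ratio slightly under 1 was the typical gene there; with the median set to no difference the epidermal split became 20 higher and 21 lower, and that of the whole section 35 and 25. Of the genes scored in both, 8 were at least 2-fold higher in both regions (88.9% of the 9 whole-section genes and 61.5% of the 13 epidermal genes), and 23 were lower in both (71.9% of 32 and 69.7% of 33). Most epidermal UMIs of a section also count in its whole, so that overlap is no independent check.

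Each section was also divided into a left and a right side, as a measure of spread inside a section. The sides of a section are not replicates. Within 9-cis HPR skin 1.80% of 1387 genes differed at least 2-fold between its sides, and within retinol skin 0.839% of 1549 genes. Between the sections 2.69% of the 2231 whole-section genes differed at least 2-fold. In epidermal spots the within-section shares were 1.13% in 9-cis HPR skin and 0.323% in retinol skin, against 2.60% between sections. A gene is called apart below when both sides of 9-cis HPR skin lay on the same side of both sides of retinol skin. Among all epidermal genes 17.6% were apart and higher in 9-cis HPR skin and 37.5% apart and lower, so being apart is common and adds little for a gene with many UMIs. Many genes named below for extreme ratios also had to run in 1 direction on both sides. For those genes being apart was partly set by the choice and adds no support.

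Many late differentiation genes were higher in 9-cis HPR epidermis. Of 46 spinous and cornified envelope genes, 29 had at least 20 UMIs in epidermal spots; 12 of those were at least 1.5-fold higher in 9-cis HPR skin and none was 1.5-fold lower, where 10.9% of all genes with that many UMIs were higher by that much and 17.2% lower. Their median log2 ratio was 0.45, beside -0.10 for all such genes. It was 0.15 in the left sides alone and 0.56 in the right sides alone. *Lor* is among these 12 genes and helped to choose the spots. The lists were chosen with earlier results of these data known, so the comparison with all genes is no independent support. Over the whole section 8 of 32 measured genes were at least 1.5-fold higher and 2 lower, with a median of 0.36. There 11.6% of all genes with at least 20 UMIs were higher by that much and 14.4% lower. *Lor*, which encodes the main protein of the cornified envelope, had 18220 and 25000 CPM in the left and right epidermal sides of 9-cis HPR skin, against 14040 and 12230 CPM in those of retinol skin. The sides were apart, and the ratio was 1.68 (1.64 to 1.72). Since *Lor* helped to choose the epidermal spots, the whole section is the better measure: 17680 CPM in 9-cis HPR skin and 10610 CPM in retinol skin, a ratio of 1.67 (1.63 to 1.70). Over epidermal spots UVR skin had 16160 CPM and control skin 79360 CPM.

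Filaggrin and its relatives followed the same direction. *Flg*, whose product bundles keratin and yields the moisturising factors of the cornified layer, had 494 and 540 CPM in the sides of 9-cis HPR epidermis, against 318 and 251 CPM in those of retinol epidermis. Its ratio was 1.84 (1.59 to 2.13). *Hrnr*, which encodes the filaggrin relative hornerin, had 110 and 112 CPM in 9-cis HPR epidermis against 46.3 and 40.8 CPM in retinol epidermis, a ratio of 2.56 (1.80 to 3.69). Both were apart, and *Hrnr* had 31.7 CPM in UVR epidermis and 125 CPM in control epidermis. *Sbsn*, the suprabasin gene, had 128 CPM in 9-cis HPR epidermis and 62.6 CPM in retinol epidermis, a ratio of 2.04 (1.502 to 2.78). *Cdsn*, whose product holds corneocytes together, stood at 745 CPM in 9-cis HPR epidermis and 494 CPM in retinol epidermis, a ratio of 1.51 (1.35 to 1.69). Earlier and cross-linking members differed less. *Krt1* and *Krt10*, the keratins of the spinous layer, had ratios of 1.08 (0.937 to 1.245) and 1.20 (1.05 to 1.38) with sides that overlapped. *Tgm1*, the membrane transglutaminase of keratinocytes, was lower in 9-cis HPR epidermis at 1853 CPM, against 2299 CPM in retinol epidermis, a ratio of 0.81 (0.76 to 0.86).

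The promoters of 3 of these genes and of the EGF-family gene *Areg*, described further on as lower in 9-cis HPR skin, are shown because the genes differed in opposite directions. Each window runs from 250 bases before to 50 bases after the RefSeq start on GRCm38.p6, 5′ to 3′ on the gene's strand. *Lor* is at chr3:92083093-92083392 on the minus strand, *Flg* at chr3:93273296-93273595 and *Hrnr* at chr3:93319499-93319798, both on the plus strand, and *Areg* at chr5:91139349-91139648 on the plus strand. Capitals mark the TATA box TATAAA, the AP-1 site TGACTCA, the cyclic AMP response element TGACGTCA and the nuclear receptor half-site AGGTCA, each searched on both strands; none overlapped another.
Lor: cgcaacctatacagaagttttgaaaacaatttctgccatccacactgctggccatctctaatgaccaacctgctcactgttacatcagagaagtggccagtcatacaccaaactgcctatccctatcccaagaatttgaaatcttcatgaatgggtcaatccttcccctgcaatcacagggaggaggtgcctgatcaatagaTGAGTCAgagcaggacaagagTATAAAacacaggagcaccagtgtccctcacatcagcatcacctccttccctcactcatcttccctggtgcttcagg
Flg: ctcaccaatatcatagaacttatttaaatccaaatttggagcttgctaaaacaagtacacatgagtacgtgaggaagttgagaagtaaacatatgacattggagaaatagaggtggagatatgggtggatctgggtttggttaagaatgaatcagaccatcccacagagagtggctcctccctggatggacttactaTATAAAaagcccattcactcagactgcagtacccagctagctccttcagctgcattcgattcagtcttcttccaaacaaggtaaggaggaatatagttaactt
Hrnr: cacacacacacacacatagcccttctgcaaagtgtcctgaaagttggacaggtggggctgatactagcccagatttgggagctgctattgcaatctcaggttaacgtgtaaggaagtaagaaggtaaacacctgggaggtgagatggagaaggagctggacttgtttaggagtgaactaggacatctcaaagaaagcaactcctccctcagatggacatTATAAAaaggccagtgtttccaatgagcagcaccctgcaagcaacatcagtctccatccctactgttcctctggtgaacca
Areg: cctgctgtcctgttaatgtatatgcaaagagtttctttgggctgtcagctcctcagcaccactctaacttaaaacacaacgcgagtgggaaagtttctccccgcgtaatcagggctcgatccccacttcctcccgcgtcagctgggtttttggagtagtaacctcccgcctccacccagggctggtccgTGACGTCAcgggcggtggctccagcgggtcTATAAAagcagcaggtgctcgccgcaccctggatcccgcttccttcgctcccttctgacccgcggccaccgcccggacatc
All 4 windows held a TATA box, which 13.6% of 32851 promoters of that length held. It began 27 bases before the start in *Lor*, 53 in *Flg*, 31 in *Hrnr* and 31 in *Areg*. The *Lor* window also held an AP-1 site 48 bases before the start (present in 5.202% of promoters), and that of *Areg* a cyclic AMP response element at 61 bases (1.79%). None held the half-site AGGTCA, which 16.3% of promoters held; this describes the letters of these windows and not binding.

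Epidermal spots were also split by the share of *Lor*. *Lor* made up 39.8% of the UMIs of *Krt5*, *Krt14* and *Lor* in 9-cis HPR epidermis and 26.0% in retinol epidermis, and it was at least 50% of them in 53 spots of 9-cis HPR skin and 41 of retinol skin. *Lor* is itself a cornified gene that differed between the skins and helped to choose the spots, so the split describes the spots and separates no cause. The cornified list median was 0.11 in the 128 and 135 spots where *Lor* was under 50%, and 0.36 in the 53 and 41 spots where it was at least 50%, 9-cis HPR skin first in each pair. *Flg* had ratios of 1.38 (1.11 to 1.73) and 1.52 (1.249 to 1.86) in that order of strata, and *Hrnr* of 1.73 (0.962 to 3.17) and 2.09 (1.32 to 3.43). Both were smaller than over all epidermal spots. Other members had ratios close to or below 1 in at least 1 stratum. *Cdsn* had ratios of 1.03 (0.86 to 1.23) and 1.31 (1.12 to 1.53), *Sprr1b* of 0.98 (0.953 to 1.014) and 1.29 (1.24 to 1.34), and *Krt1* of 1.14 (0.97 to 1.36) and 0.79 (0.61 to 1.04). *Tgm1* had ratios of 0.69 (0.64 to 0.74) and 0.88 (0.79 to 0.98), and *Crct1*, a cornified envelope gene, of 0.59 (0.56 to 0.62) and 0.85 (0.82 to 0.88). *Areg* had ratios of 0.32 and 0.33, *Hbegf* of 0.28 and 0.33, and *Alox8* of 0.47 and 0.48. The basal gene *Krt14* lay below 1 in one stratum and above it in the other, with 0.895 (0.863 to 0.928) and 1.076 (1.006 to 1.15). *Krt14* also enters the share that made the split and helped to choose the spots, so its values describe the chosen spots.

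**Figure D2:**
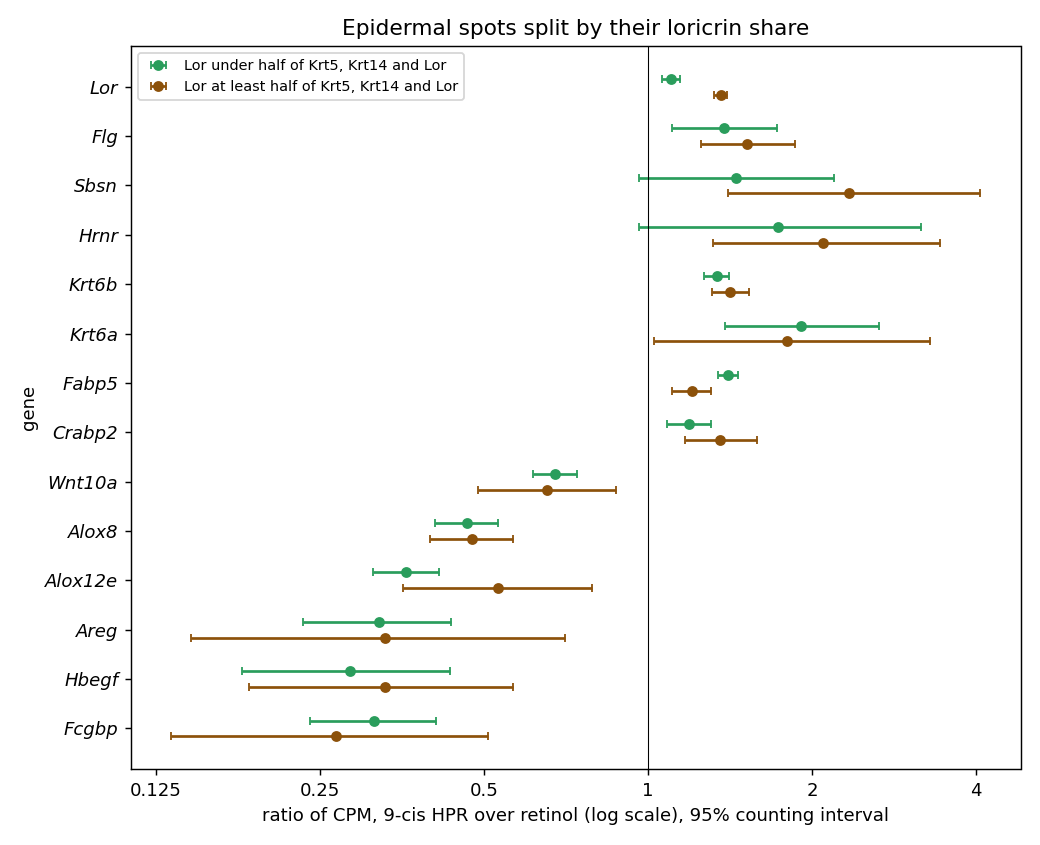
Ratio of CPM, 9-cis HPR over retinol, on a log axis for 14 genes in epidermal spots where Lor was under 50% (green) or at least 50% (brown) of the UMIs of Krt5, Krt14 and Lor; bars are 95% counting intervals. Areg, Hbegf, Alox8, Alox12e, Fcgbp and Wnt10a lie below 1 in both strata, and Flg, Krt6a, Krt6b, Fabp5 and Crabp2 above 1 in both.

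Among the stress keratins, which injured and hyperproliferative epidermis makes, the *Krt6* genes were higher in 9-cis HPR skin. Of 20 genes in that list 11 were measured, with a median log2 ratio of 0.31; 2 were at least 1.5-fold higher and none 1.5-fold lower, where 10.9% of all genes were higher and 17.2% lower by that much. *Krt6a* had 175 and 131 CPM in the epidermal sides of 9-cis HPR skin, against 50.3 and 100.2 CPM in those of retinol skin, a ratio of 1.95 (1.48 to 2.58). *Krt6b*, its more abundant neighbour in the family, had 4741 and 5202 CPM in 9-cis HPR epidermis and 2487 and 4144 CPM in retinol epidermis, a ratio of 1.47 (1.41 to 1.54). Both genes are close in sequence, and how their probes share signal was not tested. *Krt16*, the partner of *Krt6*, had a ratio of 1.26 (1.19 to 1.33) with overlapping sides, and *Krt17* of 1.04 (0.938 to 1.15). *Krt16* stood at 2825 CPM in 9-cis HPR epidermis, 2245 CPM in retinol epidermis, 8784 CPM in UVR epidermis and 255 CPM in control epidermis. The small proline-rich gene *Sprr1b* had 15150 CPM in 9-cis HPR epidermis and 12200 CPM in retinol epidermis, a ratio of 1.24 (1.21 to 1.27).

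Some genes of cell junctions were also higher. Of 18 measured desmosome and adherens junction genes, 5 were at least 1.5-fold higher in 9-cis HPR epidermis and none 1.5-fold lower (10.9% and 17.2% of all genes), with a median log2 ratio of 0.40. *Cldn4*, a tight junction claudin, had 86.2 and 86.7 CPM in the sides of 9-cis HPR epidermis and 30.2 and 40.8 CPM in those of retinol epidermis, a ratio of 2.41 (1.63 to 3.62). *Jup*, which encodes plakoglobin and was the most abundant gene of these spots, had 106300 CPM in 9-cis HPR epidermis and 80080 CPM in retinol epidermis, a ratio of 1.33 (1.32 to 1.34). A gene of that size lowers the CPM of all others; with the 5 most abundant genes left out of the total, 14 epidermal genes lay 2-fold or more above retinol skin and 28 as far below. Among the basal genes *Krt5* was lower, at 25520 CPM in 9-cis HPR epidermis against 28950 CPM in retinol epidermis, a ratio of 0.88 (0.87 to 0.90). *Krt14* had a ratio of 0.94 (0.91 to 0.97). Both genes helped to choose the epidermal spots, so these values describe the chosen spots. Over the whole section the log2 ratio of *Krt5* lay between -0.21 and -0.09 in the settings run for single genes. Of 13 measured basal keratinocyte genes, 2 were at least 1.5-fold higher in epidermal spots and 2 at least 1.5-fold lower (10.9% and 17.2% of all genes).

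Among the measured ligands of the EGF receptor family, *Areg*, *Hbegf* and *Tgfa* were lower in 9-cis HPR epidermis and *Ereg* was higher. *Areg*, which encodes amphiregulin, an autocrine growth factor of keratinocytes, had 83.9 and 54.0 CPM in the epidermal sides of 9-cis HPR skin, against 300 and 155 CPM in those of retinol skin. These were 64 UMIs against 240, a ratio of 0.31 (0.23 to 0.40). *Hbegf*, which encodes heparin-binding EGF, a wound-induced ligand, had 49.0 and 52.0 CPM in 9-cis HPR epidermis and 153 and 158 CPM in retinol epidermis, 48 UMIs against 169 and a ratio of 0.33 (0.23 to 0.45). Both were apart. *Tgfa*, named here after its value was seen, rested on 6 UMIs in 9-cis HPR epidermis and 22 in retinol epidermis, a ratio of 0.31 (0.10 to 0.79). *Ereg*, the epiregulin gene, ran the other way, with 96.0 CPM in 9-cis HPR epidermis against 53.4 CPM in retinol epidermis and a ratio of 1.80 (1.28 to 2.54). The measured receptor genes differed less: *Erbb3* had a ratio of 0.82 (0.73 to 0.91) and *Erbb2* of 1.06 (0.69 to 1.60). Untreated control epidermis had 29.7 CPM of *Areg* and UVR epidermis 116 CPM. For *Hbegf* control epidermis had no UMI, which allows up to 17.8 CPM, and UVR epidermis had 46.8 CPM. The *Areg* UMIs were uneven over the tissue: the 5 richest spots held 36.5% of them in 9-cis HPR skin and 37.4% in retinol skin, where 1 spot had 34. The list as a whole, 6 measured of 11, had a median log2 ratio of -0.96, but 0.12 in the right sides alone.

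**Figure D3:**
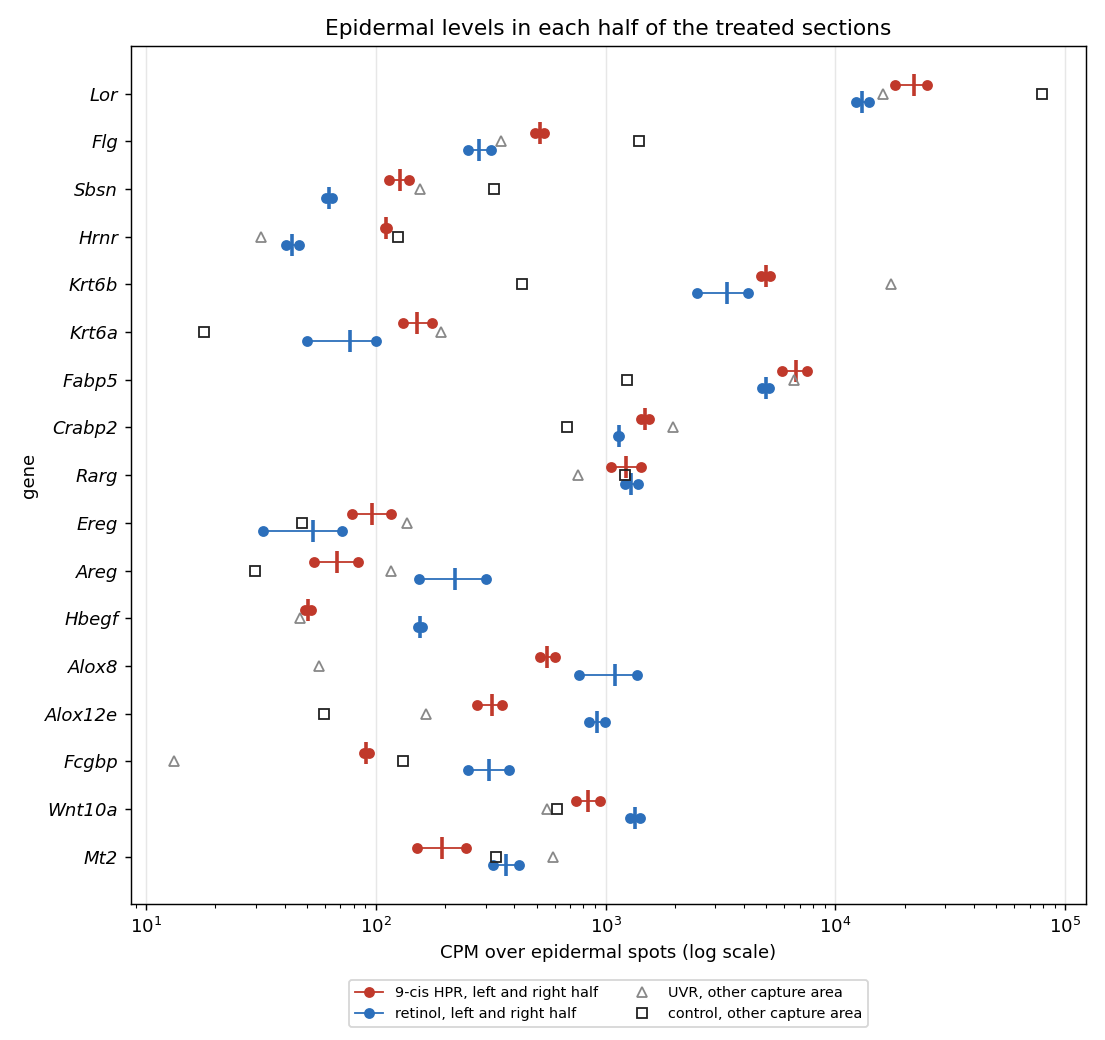
CPM over epidermal spots on a log axis for 17 genes, with the left and right sides of each treated section as joined dots and its whole epidermal level as a bar, 9-cis HPR (red) above retinol (blue); open triangles are UVR skin and open squares control skin, from another capture area, left out where no UMI was seen. Lor, Flg, Sbsn and Hrnr lie to the right in 9-cis HPR skin, and Areg, Hbegf, Alox8, Alox12e and Fcgbp to the left, while the Rarg sides overlap.

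A pair of lipoxygenase genes was also lower in 9-cis HPR epidermis. *Alox12e* (chr11:70315610-70322720 on GRCm38.p6) encodes the epidermal 12-lipoxygenase of the mouse, which oxidises arachidonic acid. It had 275 and 355 CPM in the epidermal sides of 9-cis HPR skin, against 990 and 850 CPM in those of retinol skin, a ratio of 0.35 (0.31 to 0.40). *Alox8* (chr11:69183885-69197843), the mouse 8-lipoxygenase, which phorbol ester induces in mouse skin, had 604 and 518 CPM in 9-cis HPR epidermis and 763 and 1374 CPM in retinol epidermis, a ratio of 0.51 (0.46 to 0.56). The sides of retinol skin differed from each other for *Alox8*, and both were still above those of 9-cis HPR skin. In control epidermis no *Alox8* UMI was seen, and UVR epidermis had 56.3 CPM. *Alox12b* and *Aloxe3*, the lipoxygenases that act on barrier ceramides, did not share the direction: their ratios were 1.497 (0.968 to 2.33) and 0.99 (0.51 to 1.91), both with sides that overlapped. Of the 18 measured genes of lipoxygenases and barrier lipids, 4 were at least 1.5-fold higher, and the pair above was at least 1.5-fold lower, against 10.9% higher and 17.2% lower among all genes. *Elovl4*, which lengthens the fatty acids of barrier ceramides, was among the higher ones, with 57.0 CPM in 9-cis HPR epidermis against 30.4 CPM in retinol epidermis and a ratio of 1.87 (1.19 to 2.98).

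Measured genes of the retinoid pathway itself differed less than 2-fold in epidermal spots. Of 42 genes for retinoid binding, metabolism and receptors, 12 had at least 20 UMIs in epidermal spots. Their median log2 ratio was -0.12, beside -0.10 for all such genes. No member was 1.5-fold higher, where 10.9% of all such genes were. *Adh7*, an alcohol dehydrogenase that can oxidise retinol, was 1.5-fold lower on 13 UMIs against 25, where 17.2% of all such genes were lower. So few members do not set the list apart from all genes. Some genes of the list were higher: *Crabp2*, whose product hands retinoic acid to its receptors, had 1541 and 1422 CPM in the sides of 9-cis HPR epidermis and 1135 and 1145 CPM in those of retinol epidermis, a ratio of 1.29 (1.20 to 1.40). *Fabp5*, a fatty acid carrier that also binds retinoic acid, had 6763 CPM in 9-cis HPR epidermis and 4994 CPM in retinol epidermis, a ratio of 1.35 (1.31 to 1.40). *Dgat1* and *Dgat2*, whose enzymes make triglycerides and, in the case of *Dgat1*, retinyl esters, had ratios of 1.35 (1.21 to 1.503) and 1.30 (1.10 to 1.53). These 4 genes were apart.

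The receptor genes gave no difference beyond counting error in epidermal spots. *Rarg*, the main retinoic acid receptor of epidermis, had 1426 and 1054 CPM in the sides of 9-cis HPR epidermis and 1377 and 1218 CPM in those of retinol epidermis, a ratio of 0.947 (0.875 to 1.02). *Rxra* had a ratio of 0.86 (0.50 to 1.45) and *Rxrb* of 0.74 (0.47 to 1.14), both on fewer than 100 UMIs. The dehydrogenase genes *Rdh12*, *Rdh13* and *Dhrs3* had ratios of 1.07 (0.61 to 1.87), 0.90 (0.62 to 1.30) and 0.76 (0.40 to 1.44). Over the whole section 18 of the 42 genes reached 20 UMIs, which added *Crabp1*, *Lpl*, *Rara*, *Rdh14*, *Sdr16c5* and *Tgm2*. *Sdr16c5*, an epidermal retinol dehydrogenase, had 15 UMIs in 9-cis HPR skin and 6 in retinol skin, a ratio of 2.83 (1.04 to 8.90), and *Lpl*, lipoprotein lipase, had 8 and 24, a ratio of 0.38 (0.15 to 0.87). *Crabp1*, *Rara*, *Rdh14* and *Tgm2* had between 10 and 19 UMIs in each skin and intervals that held 1. The other 24 could not be compared at this depth. *Cyp26b1*, which breaks retinoic acid down, had 10 UMIs in 9-cis HPR skin and 5 in retinol skin, and *Aldh1a3*, which makes it, had 2 and 12. *Rarres2*, a secreted protein, had 12 and 7, *Rbp4*, the plasma retinol carrier, 1 and 8, and *Lrat*, which esterifies retinol, 5 and 5. *Stra6*, *Rdh1*, *Rdh10*, *Rdh11*, *Dhrs9*, *Sdr16c6*, *Aldh1a1*, *Aldh1a2*, *Adh1*, *Bco2*, *Rxrg*, *Rarres1*, *Nrip1* and *Ncoa1* had at most 5 UMIs in either skin. *Cyp26a1*, *Cyp26c1*, *Rarb*, *Bco1* and *Ces1d* had no UMI in either skin, which allows up to 2.40 CPM in 9-cis HPR skin and 2.12 CPM in retinol skin.

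**Figure D4:**
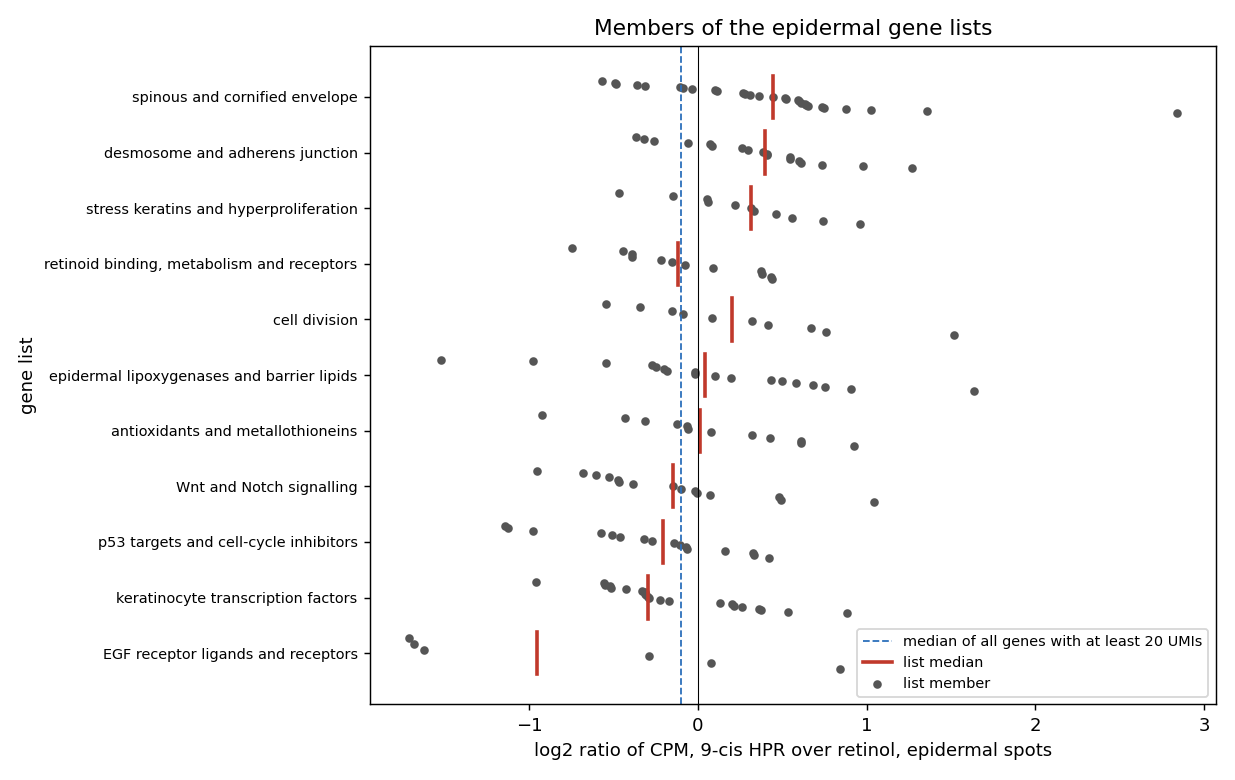
Log2 ratio of CPM, 9-cis HPR over retinol, in epidermal spots for each member with at least 20 UMIs (grey dots) of 11 gene lists, with the list median (red bar) and the median of all genes with at least 20 UMIs (dashed line). The cornified list has its median at 0.45 and the EGF list, with 6 members, at -0.96.

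Several other single genes of epidermis were among the highest ratios. *Pkd2*, which encodes the calcium channel polycystin-2, had 159 and 120 CPM in the epidermal sides of 9-cis HPR skin and 38.2 and 64.6 CPM in those of retinol skin, a ratio of 2.61 (1.90 to 3.63). It was also higher in the other spots, by 2.40 (1.56 to 3.75). *Tcf23*, of the helix-loop-helix factors, stood at 120 CPM in 9-cis HPR epidermis, 48.8 CPM in retinol epidermis, 274 CPM in UVR epidermis and 11.9 CPM in control epidermis, and a ratio of 2.46 (1.76 to 3.48). *Ywhaz*, a 14-3-3 adaptor gene, had a ratio of 2.19 (1.62 to 2.98), *Zfp503*, a zinc finger gene, of 1.87 (1.63 to 2.16), and *Lgals7*, the galectin gene of stratified epithelia, of 1.84 (1.69 to 2.01). *Cd44*, the hyaluronan receptor, had 74.9 CPM in 9-cis HPR epidermis and 32.2 CPM in retinol epidermis, a ratio of 2.32 (1.53 to 3.59). *Aqp5*, a water channel, had 69.6 CPM in 9-cis HPR epidermis and 32.2 CPM in retinol epidermis, a ratio of 2.16 (1.41 to 3.35), while *Aqp3*, the main water and glycerol channel of epidermis, had a ratio of 1.05 (1.00 to 1.10).

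In the other direction *Fcgbp*, which encodes a mucin-like protein that binds immunoglobulin G, had 93.2 and 88.6 CPM in the sides of 9-cis HPR epidermis and 380 and 251 CPM in those of retinol epidermis, a ratio of 0.29 (0.23 to 0.37). Its sides were apart, and UVR epidermis had 13.2 CPM. *Otud7a*, a deubiquitinase gene, had 454 CPM in 9-cis HPR epidermis and 1052 CPM in retinol epidermis, a ratio of 0.43 (0.39 to 0.48). *Sdf2l1*, a chaperone partner of the endoplasmic reticulum, had a ratio of 0.45 (0.39 to 0.51), *Gnptg*, of the enzyme that tags lysosomal proteins, of 0.44 (0.32 to 0.59), and *Mroh1* of 0.48 (0.36 to 0.62). *Tgfb1*, the transforming growth factor gene, had 79.3 and 57.8 CPM in 9-cis HPR epidermis and 183 and 121 CPM in retinol epidermis, a ratio of 0.45 (0.33 to 0.61).

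Lists of signalling and stress genes of epidermis are set beside all genes, of which 10.9% were at least 1.5-fold higher and 17.2% lower. The Wnt and Notch list and the p53 list were near those shares of lower genes. Of 15 measured Wnt and Notch genes 1 was at least 1.5-fold higher and 3 were lower by as much. *Wnt10a*, a ligand of epidermis and its appendages, had 942 and 744 CPM in 9-cis HPR epidermis against 1417 and 1271 CPM in retinol epidermis, a ratio of 0.62 (0.57 to 0.68), and *Axin2*, a target of the pathway, a ratio of 0.69 (0.55 to 0.87). *Wnt5a* was higher, by 1.41 (1.115 to 1.78). Of 22 measured keratinocyte transcription factors 1 was at least 1.5-fold higher and 1 lower by as much; *Gata3* had a ratio of 0.81 (0.77 to 0.85) and *Ahr*, the aryl hydrocarbon receptor, of 0.70 (0.60 to 0.81). Among p53 targets and cell-cycle inhibitors none of 16 was at least 1.5-fold higher and 3 were at least 1.5-fold lower. *Cdkn1a*, which encodes p21, had 4352 CPM in 9-cis HPR epidermis and 4805 CPM in retinol epidermis, a ratio of 0.91 (0.87 to 0.94), *Bax* of 0.67 (0.54 to 0.83) and *Btg2* of 0.45 (0.30 to 0.67). Genes of cell division were sparse: 10 of 31 were measured, 3 were at least 1.5-fold higher and none was 1.5-fold lower, but the list median was 0.76 in the left sides and -0.75 in the right sides. *Mcm2*, of the replication helicase, had 352 and 158 CPM in the sides of 9-cis HPR epidermis and 193 and 265 CPM in those of retinol epidermis, a ratio of 1.06 (0.88 to 1.27). *Ccnd1*, the cyclin D1 gene, had 39.0 CPM in 9-cis HPR epidermis and 23.0 CPM in retinol epidermis, a ratio of 1.695 (0.993 to 2.94), and *Mki67*, a proliferation marker, had 8 and 7 UMIs. *Mt1* and *Mt2*, the metallothionein genes, had ratios of 0.74 (0.69 to 0.79) and 0.53 (0.44 to 0.63), while *Gsto1*, a glutathione transferase, was higher at 1.90 (1.35 to 2.70).

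Between epidermis and muscle 5 fibrillar collagen genes were higher in 9-cis HPR skin. In the other spots 11 of 21 collagen genes had at least 20 UMIs, and 6 of them were at least 1.5-fold higher and none 1.5-fold lower, where 11.04% and 21.1% of all genes with that many UMIs were; their median log2 ratio was 0.73. *Col1a1*, the first chain of type I collagen, had 784 and 393 CPM in the sides of the other spots of 9-cis HPR skin, against 212 and 188 CPM in those of retinol skin, a ratio of 2.98 (2.07 to 4.34). *Col1a2*, the second chain, had 4611 and 3311 CPM in 9-cis HPR skin and 1919 and 1539 CPM in retinol skin, a ratio of 2.30 (2.03 to 2.61). *Col3a1*, *Col5a1* and *Col5a2*, of the fibrils that type I collagen shares, had ratios of 1.82 (1.51 to 2.20), 2.15 (1.815 to 2.54) and 2.33 (1.53 to 3.60). All 5 were apart in these spots. Of all genes there with at least 100 UMIs, 18.1% were apart and higher and 24.7% apart and lower. *Col1a1*, *Col1a2* and *Col5a2* were named for being among the highest ratios of these spots. The ratio of *Col5a1* differed in size between sides, with 3.64 in the left sides and 1.18 in the right sides. Collagens of basement membrane did not share this: *Col4a1* and *Col4a2* had ratios of 1.06 (0.68 to 1.65) and 0.90 (0.45 to 1.77). *Loxl1*, an enzyme that cross-links elastin, had a ratio of 2.29 (1.67 to 3.17), but its sides overlapped, with 952 and 325.5 CPM in 9-cis HPR skin and 185 and 385 CPM in retinol skin. Fibroblast markers summed to 6263 CPM in these spots of 9-cis HPR skin and 2852 CPM in those of retinol skin, with none of the 7 at 0 in either. Of those, 1134 of the UMIs in 9-cis HPR skin and 599 in retinol skin were *Col1a1*, *Col1a2* and *Col3a1* themselves. The other 4 markers had 23 UMIs (124.5 CPM) in 9-cis HPR skin and 14 (65.2 CPM) in retinol skin, too few to measure fibroblasts apart from collagen.

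Over the whole section the same collagens stood at smaller ratios, 2.43 (1.91 to 3.10) for *Col1a1*, 1.96 (1.79 to 2.16) for *Col1a2* and 1.67 (1.46 to 1.92) for *Col3a1*. In the other spots, which took different shares of each section, *Col1a2* had 3984 CPM in 9-cis HPR skin, 1731 CPM in retinol skin, 2991 CPM in UVR skin and 2517 CPM in control skin. *Twist1*, a transcription factor gene of mesenchyme, had a ratio of 1.87 (1.45 to 2.42) and *Myl12a*, a non-muscle myosin light chain, of 2.29 (1.77 to 2.99). *Mmp11*, the stromelysin-3 gene of stromal cells, was chosen after its values were seen: it had 52 UMIs in the other spots of 9-cis HPR skin and 4 in those of retinol skin, a ratio of 15.1 (5.56 to 57.6). *Smad3*, which carries the signal of the transforming growth factor receptor, was lower over the section, by a ratio of 0.65 (0.51 to 0.81).

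Immune genes were uneven. *Igha*, the heavy chain of immunoglobulin A made by plasma cells, had 2488 and 1717 CPM in the sides of the other spots of 9-cis HPR skin and 646 and 666 CPM in those of retinol skin, a ratio of 3.23 (2.65 to 3.94). It was found in 131 of the 269 other spots of 9-cis HPR skin and 73 of the 234 of retinol skin, and the 5 richest of these spots held 23.5% and 16.3% of its UMIs, in that order. *Sdc1*, a plasma cell marker that keratinocytes also make, was lower over the section, at 0.67 (0.60 to 0.75). *Cd74*, the invariant chain of class II presentation, had a whole-section ratio of 1.43 (1.21 to 1.69) and *H2-Ab1*, a class II chain, of 0.80 (0.68 to 0.94), so the pair differed in opposite directions. T cell markers had 6 UMIs in 9-cis HPR skin and 13 in retinol skin, too few to compare. Macrophage and dendritic markers summed to 512 CPM in 9-cis HPR skin and 473.5 CPM in retinol skin.

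Genes of lipid synthesis were lower in the other spots of 9-cis HPR skin. *Fa2h*, whose enzyme hydroxylates fatty acids, had 146 and 33.7 CPM in the sides of 9-cis HPR skin and 821 and 460 CPM in those of retinol skin, a ratio of 0.14 (0.08 to 0.24). *Mgll*, a lipase gene, had a ratio of 0.15 (0.08 to 0.26), *Scd1*, the stearoyl-CoA desaturase of sebaceous cells, of 0.33 (0.18 to 0.57), *Acacb*, an acetyl-CoA carboxylase, of 0.35 (0.29 to 0.42), and *Fasn*, fatty acid synthase, of 0.60 (0.45 to 0.79). Of 6 measured sebaceous lipid genes 4 were at least 1.5-fold lower and none higher, where 21.1% of all genes were lower by that much, with a median log2 ratio of -1.03. Other spots with at least 3 *Fa2h* UMIs numbered 2 in 9-cis HPR skin and 14 in retinol skin, and in retinol skin those 14 held 63.8% of the *Mgll* UMIs, 60.9% of *Acacb*, 45.0% of *Scd1* and 21.9% of *Acly* of the other spots; the share of *Fa2h* itself is set by the choice of spots. Outside them *Acacb* stood at 753 CPM in 9-cis HPR skin and 977 CPM in retinol skin, and *Mgll* at 76.4 and 216 CPM. *Scd1* stood at 92.8 CPM in 9-cis HPR skin and 170 CPM in retinol skin outside them, and *Acly*, which makes acetyl-CoA for lipid synthesis, at 240 and 514 CPM. *Alox12e*, lower in these spots as in epidermis, was less concentrated: the 14 spots held 13.4% of its UMIs, and outside them it had 464 CPM in 9-cis HPR skin against 2587 CPM in retinol skin. Its ratio over all other spots was 0.18 (0.14 to 0.22).

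In the muscle-rich spots several genes of fast fibres were lower in 9-cis HPR skin and others were not. Of 21 measured sarcomere genes 4 had ratios above 1 and 17 below; 7 were at least 1.5-fold lower and none higher, where 11.01% of all genes there were lower and 25.1% higher. The spots were chosen by the summed share of *Myh4*, *Pvalb*, *Ckm*, *Acta1* and *Tnnt3*, which was 11.2% of UMIs in 9-cis HPR skin and 19.0% in retinol skin, so values of those genes, all in the list, describe the chosen spots. *Myh4*, the myosin of the fastest fibres, had 5791 and 20620 CPM in the sides of 9-cis HPR muscle and 55490 and 34070 CPM in those of retinol muscle, a ratio of 0.26 (0.24 to 0.27). *Pvalb*, the calcium buffer of fast fibres, had a ratio of 0.32 (0.26 to 0.40) and *Ckm*, muscle creatine kinase, of 0.65 (0.63 to 0.67). *Mylpf*, the fast regulatory light chain, which the choice did not use, had 3338 CPM in 9-cis HPR muscle and 9879 CPM in retinol muscle, a ratio of 0.34 (0.30 to 0.38). *Myh1*, the myosin of another fast fibre type, had 8853 CPM in 9-cis HPR muscle and 7374 CPM in retinol muscle, a ratio of 1.20 (1.095 to 1.32), and its sides overlapped. *Tnni2*, the fast troponin inhibitor, had a ratio of 1.06 (0.79 to 1.43). *Actn2*, the sarcomeric actinin, and *Ankrd23*, a stretch-responsive muscle gene, were higher, with ratios of 1.38 (1.17 to 1.62) and 1.76 (1.54 to 2.01). For *Ankrd23*, *Myh4*, *Pvalb*, *Mylpf* and *Actn2* the whole-section ratios rested on muscle: with muscle-rich spots left out, their log2 ratios were -0.01, 0.61, 0.05, 0.26 and -0.54.

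**Figure D5:**
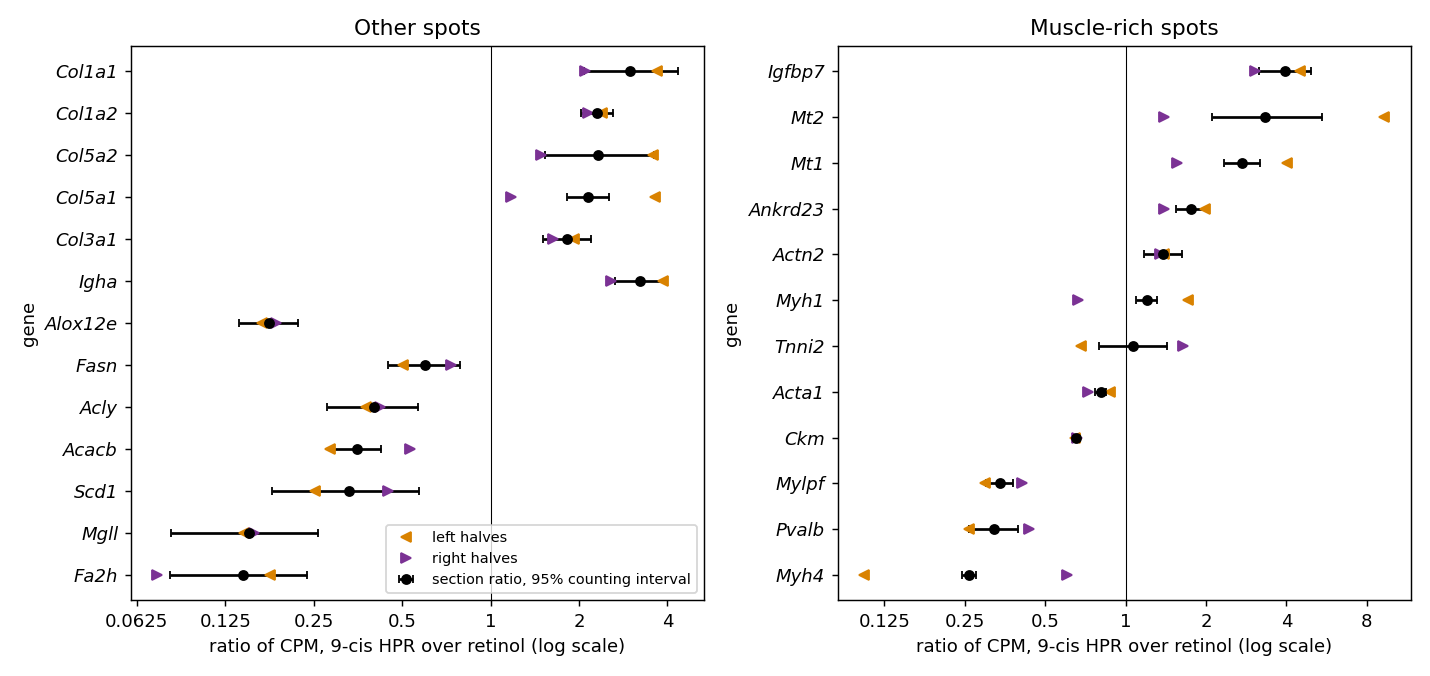
Ratio of CPM, 9-cis HPR over retinol, on a log axis for genes of the other spots (left panel) and of the muscle-rich spots (right panel). Black dots with bars are the section ratio and its 95% counting interval, and triangles are the ratios of the left sides and of the right sides. The 5 collagen genes shown lie above 1 in both sides and Fa2h, Mgll, Scd1 and Alox12e below 1 in both.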

How the data were processed

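The authors deposited UMI counts, not normalized, for 19465 genes in each spot over tissue. Per the submitters' processing notes the authors used Space Ranger 2.0.0 on mm10, and Seurat 4.1.0; per the labels' protocols the tissue was fresh-frozen and the libraries came from probes of a kit meant for fixed tissue.

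Counts were summed per section and region and divided by the total UMIs (CPM). Each ratio has a 95% interval (Clopper-Pearson, on the share of a gene's UMIs that fell in 9-cis HPR skin), which covers counting error only. A gene needed 100 UMIs over both sections, a list member 20, and 0 UMIs allows up to 3 counts. Kept spots held 1249928 UMIs in 9-cis HPR skin (median 653 per spot) and 1414976 in retinol skin (median 982). Named genes were the 12 highest and 12 lowest ratios of the section (at least 200 UMIs) and the 10 of each end in epidermal spots (at least 150), all at least 1.5-fold and in 1 direction on both sides of the sections, the 5 of each end in other spots (at least 100 UMIs, 1.5-fold), up to 3 of each list's ends with at least 100 UMIs, a fixed set, and the retinoid genes; some that the rule names are not reported here; *Alox12b*, *Aloxe3*, *Cdsn*, *Ckm*, *Col4a1*, *Col4a2*, *Col5a1*, *Crct1*, *Elovl4*, *Erbb2*, *Gata3*, *Igfbp7*, *Jup*, *Mmp11*, *Sprr1b* and *Tgfa* lie outside that rule and were chosen after their values were seen. Members and the 25 lists were chosen with earlier results of these data known. Coordinates and promoters are RefSeq's on GRCm38.p6, the assembly of mm10, joined by symbol (19106 genes matched). Python 3.11.15, numpy 2.4.6, scipy 1.17.1 and pandas 2.3.3 were used, tested on simulated data.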

Additional observations from a re-analysis of the deposited data

How the results depend on the processing

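No paired analysis was possible because each treatment had 1 section. The main counts were 19 genes at least 2-fold higher and 41 lower over the section, and 13 and 33 in epidermal spots. Higher and lower counts over the section became 35 and 25 with the median ratio set to 1, 201 and 241 with a minimum of 20 UMIs, 1 and 10 with a minimum of 500, 40 and 89 with spots weighted equally, 8 and 26 in the right sides, and 41 and 19 with the grid reading. In epidermal spots they became 20 and 21 with the median ratio set to 1, 155 and 242 with a minimum of 20 UMIs, 0 and 3 with a minimum of 500, 4 and 13 where the share was at least 5%, 3 and 8 where *Lor* was at least 50%, and 33 and 13 with the grid reading; the right sides had 4 higher, and spots with *Lor* under 50% 21 lower. These 2 minimums change the number of genes scored; other causes were not tested. Log2 ratios that reversed over the section, with muscle-rich spots left out, were -0.0074 for *Ankrd23*, 0.6141 for *Myh4*, 0.0471 for *Pvalb*, 0.2632 for *Mylpf* and -0.5379 for *Actn2*. In the right sides *Loxl1* reversed to -0.0773 over the section and -0.2417 in other spots, and the epidermal EGF list to 0.1234; *Cxcl14* reversed to -0.1688 with spots weighted equally, and the epidermal sebaceous list to 0.0426 where *Lor* was at least 50%. Of 75 gene ratios of at least 1.5-fold, 67 kept their sign under each alternative run for single genes. The grid reading, which turns every sign, is not among these. Many of these genes were named for extreme ratios in 1 direction on both sides, and the sides are among the alternatives. For those genes the sign in the sides was fixed by the choice, so the count does not measure stability. Depth limits the comparison most in other and muscle-rich spots, where no UMI allows up to 16.2 and 25.6 CPM in 9-cis HPR skin and 13.96 and 26.2 CPM in retinol skin.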

Other observations

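The metallothionein genes went opposite ways in epidermal and muscle-rich spots. In muscle-rich spots *Mt1* had 6666 and 3890 CPM in the sides of 9-cis HPR skin, against 1662 and 2500 CPM in those of retinol skin, a ratio of 2.72 (2.34 to 3.18), and *Mt2* had 725.6 CPM against 218 CPM, a ratio of 3.33 (2.11 to 5.42). In epidermal spots both genes were lower in 9-cis HPR skin (ratios 0.74 and 0.53). Ratios ran higher in muscle-rich spots: 25.1% of all genes with at least 20 UMIs were at least 1.5-fold higher, with a median log2 ratio of 0.21. In epidermal spots these values were 10.9% and -0.10. The 5 muscle genes held 11.2% of UMIs in the muscle-rich spots of 9-cis HPR skin and 19.0% in those of retinol skin. The difference between regions, and the part that this makeup plays in it, was not tested. *Igfbp7*, a secreted binding protein of growth factors, was also higher in the muscle-rich spots of 9-cis HPR skin, with 411 UMIs against 102 in retinol skin and a ratio of 3.94 (3.17 to 4.95); it was chosen after its values were seen. Its level in those spots was 3509 CPM in 9-cis HPR skin, 890 CPM in retinol skin, 714 CPM in UVR skin and 783 CPM in control skin.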
